A study of Mus musculus with 10 samples.

Results

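*Npdc1*, *Tinagl1*, *Obsl1*, *Hid1*, *Rbm11*, *Paqr5* and *Tmem191c* are 7 genes with little described role in blood formation. They were chosen by their lower counts in KO than in WT libraries in an earlier analysis of the same data, with no stated threshold, so their difference between the genotypes is described here and not tested. All 7 were found among the 26146 gene symbols of the count table, and all 7 passed the filter on low counts that left 14165 tested genes. RNA was sequenced from hematopoietic stem cells (HSCs) of 10 young adult mice, sorted as LSKCD48−CD150+ cells, that is Lin−Sca-1+c-Kit+ bone marrow cells without CD48 and with CD150. The 5 mice labelled WT (wildtype) carried floxed *Cited2* alleles and no Cre by the study's methods, and are its *Cited2* CTL group. The 5 mice labelled KO (*Cited2* KO) carried floxed *Cited2* alleles with *Vav-iCre* and are its *Cited2* CKO group. Mice of both genotypes were on the C57BL/6J background, and each library came from 1 mouse. *Vav-iCre* acts in the whole hematopoietic system from shortly after HSCs arise, so any cells that escaped deletion would also be in the sort.

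Read counts summed to between 3058690 and 4548795 per WT library and to between 3500215 and 4315029 per KO library. Levels are given as CPM, the counts of a gene scaled to a common, normalized library size. *Cited2* was measured at 3.80, 4.21, 5.00 and 8.30 CPM in the libraries KO1, KO2, KO4 and KO5, and at 120.1 CPM in the library labelled KO3. The WT libraries lay between 101 and 222 CPM of *Cited2*, so the library labelled KO3 goes against its label in the deleted gene, and values are given below with and without it. The summed level of 10 HSC markers was between 1934 and 2229 CPM in WT and between 1731 and 1935 CPM in KO libraries, with *Kit*, *Procr* and *Slamf1* detected in every library. In bulk RNA, fewer cells of a type and less RNA per cell cannot be told apart.

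CITED2 is a transcriptional regulator that does not bind DNA itself. It binds the CBP family of acetyltransferase coactivators, where it can compete with other transcription factors or bring the coactivators to a promoter. The 7 genes belong to different pathways. NPDC1 is a membrane protein first described in neural cells, where it was reported to bind E2F1. TINAGL1 is a secreted matrix protein with a cathepsin B-like domain that is not an active protease. OBSL1 is a cytoskeletal adaptor that joins CUL7 and CCDC8 in a complex whose loss restricts growth in humans. HID1 sits at the Golgi and takes part in the formation of secretory granules, RBM11 is a splicing regulator with an RNA recognition motif, and PAQR5 is the membrane progesterone receptor gamma. For TMEM191C, a predicted membrane protein, no role is given here.

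Every gene of the 7 was lower in each KO library than in each WT library, which was the case for 280 of the 14165 tested genes (1.98%). All 7 were among the 15 genes called lower in KO HSCs (0.106% of tested genes, edgeR's quasi-likelihood test with an adjusted p under 0.05 and a fold change above 1.2). Since this contrast chose the genes, nothing is read from either count. The median log2 fold change of KO against WT (log2FC) of the 7 genes was -1.11, and that of all tested genes was 0.0065.

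**Figure D1:**
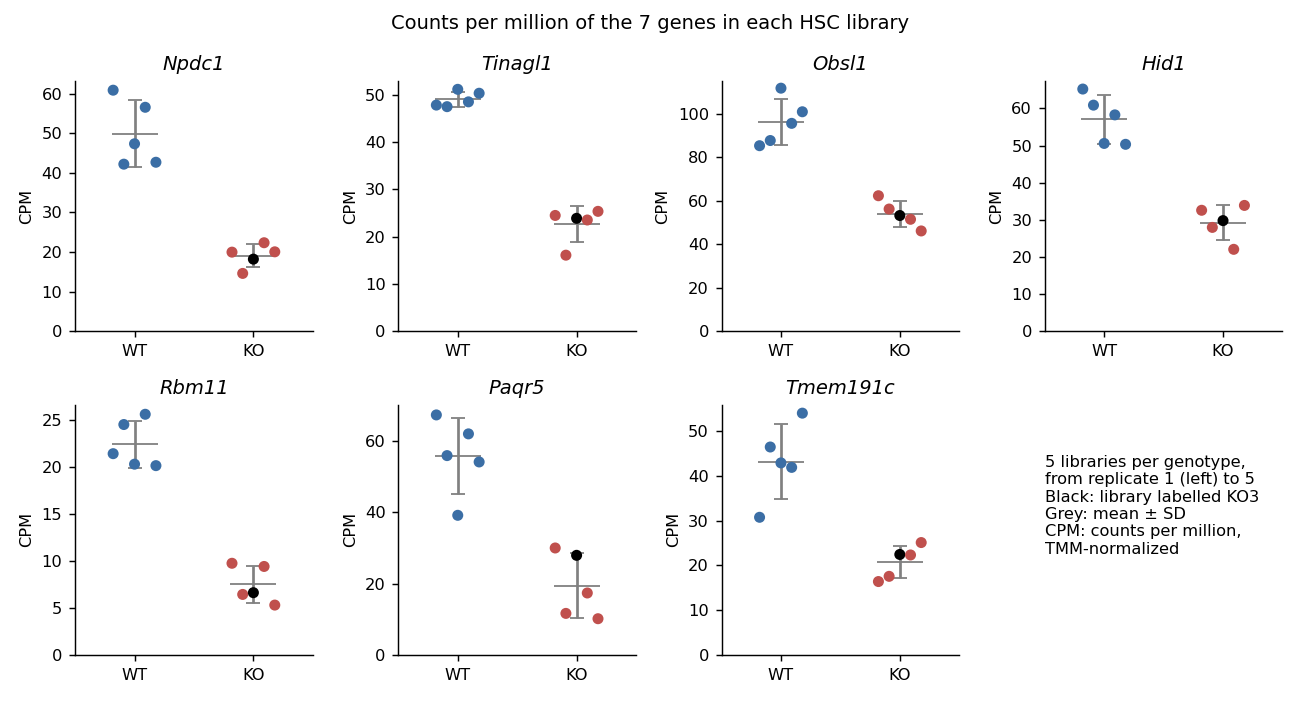
CPM (y axis, from 0) of each of the 7 genes in the 5 WT (blue) and 5 KO (red) HSC libraries, with the mean and SD in grey and the library labelled KO3 in black. The genotypes do not overlap for any of the 7 genes, and KO3 lies among the other KO libraries, also for *Rbm11*, where it had 6.62 CPM and the other KO libraries lay between 5.30 and 9.75 CPM.

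The sequence at the start sites was compared first, as a description. The genes share their direction because they were chosen for it. Promoters, here the 250 bases before and 50 bases after a RefSeq start (GRCm38.p6), were at hand for 6 of the 7 genes (all but *Hid1*), *Tinagl1* having a pair of starts. Their GC content was between 56.3% and 67.7%, above the median of 52.7% over 32851 promoters. The quartiles over those promoters were 45.7% and 61.7%, so several promoters of these genes lay within the usual range. The GC box GGGCGG, the site bound by SP family factors, was searched on both strands. It was found for 5 of the 6 genes (5 of their 7 promoters), against 35.7% of all promoters. *Obsl1* had none. All promoters were not matched to the genes in GC content or expression, so no excess is read from this or the following shares. The bases before the start of *Paqr5*, *Rbm11* and *Obsl1* are shown, the first pair for their GC boxes (in capitals, CCGCCC being the other strand) and *Obsl1* as the gene without one. They run 5′ to 3′ on the strand of the gene and stop before its first exon in the GENCODE annotation.
*Paqr5*, chr9:62026857-62027040, minus strand: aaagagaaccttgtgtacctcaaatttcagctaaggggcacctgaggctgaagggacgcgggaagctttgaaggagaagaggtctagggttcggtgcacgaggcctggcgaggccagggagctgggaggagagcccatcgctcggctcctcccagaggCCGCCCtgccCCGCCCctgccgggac
*Rbm11*, chr16:75592641-75592843, plus strand: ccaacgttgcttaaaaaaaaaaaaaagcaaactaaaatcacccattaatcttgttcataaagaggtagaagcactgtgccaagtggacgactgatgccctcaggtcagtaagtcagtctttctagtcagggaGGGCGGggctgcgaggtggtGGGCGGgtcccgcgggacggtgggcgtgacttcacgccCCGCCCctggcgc
*Obsl1*, chr1:75506453-75506702, minus strand: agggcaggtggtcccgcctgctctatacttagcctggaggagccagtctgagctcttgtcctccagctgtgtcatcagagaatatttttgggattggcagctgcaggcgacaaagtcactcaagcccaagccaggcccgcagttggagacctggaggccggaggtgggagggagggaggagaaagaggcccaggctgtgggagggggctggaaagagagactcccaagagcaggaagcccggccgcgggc
Of the motifs named for factors that HSCs need, the E-box CAGGTG was found for 3 genes (*Npdc1*, *Obsl1* and *Paqr5*, 20.2% of all promoters) and CAGCTG for *Obsl1* and *Tmem191c* (16.3% of all promoters). The ZFX core AGGCCT was found for *Paqr5* alone (10.3% of all promoters), and the STAT site TTCNNNGAA for none (8.30% of all promoters). The hypoxia response core ACGTG was found for *Tinagl1* (19.6% of all promoters), the TATA box TATAAA for none (13.6%), and the CCAAT box for *Obsl1* and *Tmem191c* (37.4%). Each motif was searched on both strands, the palindromes among them read the same on both, no match overlapped one to another motif, and a match is a description of the letters, not of binding.

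The membrane and secreted proteins are taken first. *Npdc1* (chromosome 2, 25399351 to 25409494, plus strand, GRCm38) was measured at 60.9, 42.2, 47.3, 56.5 and 42.7 CPM in WT1 to WT5. In KO1 to KO5 it was measured at 19.97, 14.6, 18.2, 22.3 and 20.05 CPM. KO4 was the highest and KO2 the lowest KO library, and the lowest WT library was 1.89 times the highest KO library, the widest gap of the 7 genes after *Rbm11*. The means were 49.9 ± 8.41 CPM in WT and 19.0 ± 2.88 CPM in KO HSCs (SD, n = 5 each), and log2FC was -1.39 ± 0.17 (SE). Without KO3 the KO mean was 19.2 ± 3.28 CPM (SD, n = 4). In the GENCODE annotation of GRCm38, 612 of the 3906 exonic bases of *Npdc1* are shared with *Entpd2* on the same strand. The deposited length of *Npdc1* is 1473 bases, so the counting may have used other exons. How reads on shared bases were counted is not stated. *Entpd2*, which encodes an ectonucleotidase, had 2.72 ± 1.96 CPM in WT and 2.08 ± 1.28 CPM in KO HSCs (SD, n = 5 each).

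*Tinagl1* (chromosome 4, 130164454 to 130175122, minus strand) was the most even gene of the 7 in WT HSCs, with 47.8, 47.5, 51.2, 48.5 and 50.3 CPM in WT1 to WT5. In KO1 to KO5 it had 24.5, 16.1, 23.9, 23.5 and 25.3 CPM, with KO2 well below the other 4 libraries. Its coefficient of variation was 3.27% over the WT and 16.5% over the KO libraries. These rest on 143 to 230 counts in the WT and 65 to 110 counts in the KO libraries. Counting noise alone gives spread at such counts, so no difference in spread is read from them. The means were 49.1 ± 1.60 CPM in WT and 22.7 ± 3.74 CPM in KO HSCs (SD, n = 5 each), and log2FC was -1.11 ± 0.15 (SE). KO3 had 23.9 CPM, 48.7% of the WT mean. Without KO2, the library that stands apart, the log2FC was -1.01.

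*Paqr5* (chromosome 9, 61953481 to 62026856, minus strand) was the most variable gene of the 7 in KO HSCs. WT1 to WT5 had 67.2, 55.8, 39.1, 61.9 and 54.0 CPM, and KO1 to KO5 had 29.9, 11.6, 27.9, 17.3 and 10.1 CPM. The KO libraries split, with KO1 and KO3 above and KO2, KO4 and KO5 well below them, and the coefficient of variation was 47.1% in KO against 19.1% in WT. The means were 55.6 ± 10.6 CPM in WT and 19.4 ± 9.13 CPM in KO HSCs (SD, n = 5 each), and log2FC was -1.52 ± 0.28 (SE). KO3 had the second highest value of the KO libraries. *Tmem191c* (chromosome 16, 17276077 to 17283229, plus strand) had 30.8, 46.5, 42.9, 41.9 and 54.0 CPM in WT1 to WT5. It had 16.4, 17.6, 22.5, 22.3 and 25.1 CPM in KO1 to KO5, and the lowest WT library was only 1.22 times the highest KO library, the narrowest gap of the 7 genes. The means were 43.2 ± 8.44 CPM in WT and 20.8 ± 3.66 CPM in KO HSCs (SD, n = 5 each), and log2FC was -1.06 ± 0.18 (SE). In the GENCODE annotation 240 of its 2878 exonic bases lie opposite exons of *Pi4ka*, a phosphatidylinositol kinase gene on the minus strand. On its own strand 477 of them are shared with *Gm49573*, a processed transcript that is not in the count table. The deposited length of *Tmem191c* is 1408 bases, and the use of strand in counting is not stated. *Pi4ka* itself had 84.6 ± 21.7 CPM in WT and 74.6 ± 5.15 CPM in KO HSCs (SD, n = 5 each).

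The intracellular proteins followed. *Obsl1* (chromosome 1, 75479310 to 75506452, minus strand) had the most reads of the 7 genes and the log2FC closest to 0. It had 85.3, 87.6, 112, 95.5 and 101 CPM in WT1 to WT5 and 62.3, 56.2, 53.2, 51.4 and 46.1 CPM in KO1 to KO5. WT3 was the highest of all libraries and KO5 the lowest. The means were 96.2 ± 10.7 CPM in WT and 53.8 ± 5.97 CPM in KO HSCs (SD, n = 5 each), and log2FC was -0.84 ± 0.11 (SE). *Hid1* (chromosome 11, 115347707 to 115367756, minus strand) had 65.2, 60.9, 50.6, 58.3 and 50.3 CPM in WT1 to WT5 and 32.6, 28.0, 29.8, 22.0 and 33.9 CPM in KO1 to KO5. Its highest WT libraries were WT1 and WT2, and its lowest KO library was KO4. The means were 57.0 ± 6.52 CPM in WT and 29.2 ± 4.64 CPM in KO HSCs (SD, n = 5 each), and log2FC was -0.96 ± 0.15 (SE).

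*Rbm11* (chromosome 16, 75592844 to 75602829, plus strand) was the least abundant gene of the 7 and had the log2FC farthest from 0, ahead of *Paqr5* by less than either SE. It had 21.4, 24.5, 20.3, 25.6 and 20.1 CPM in WT1 to WT5 and 9.75, 6.43, 6.62, 9.41 and 5.30 CPM in KO1 to KO5. These values rest on 64 to 105 counts in the WT and 23 to 41 counts in the KO libraries, the fewest of the 7 genes. KO1 and KO4 were the highest KO libraries, and the lowest WT library was 2.07 times the highest KO library, the widest gap of the 7 genes. The means were 22.4 ± 2.51 CPM in WT and 7.501 ± 1.96 CPM in KO HSCs (SD, n = 5 each), and log2FC was -1.58 ± 0.24 (SE).

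Levels were compared between genes as CPM per kilobase of gene length. In WT HSCs the order was *Npdc1* with a mean of 33.9, *Tmem191c* with 30.7, *Tinagl1* with 22.6, *Hid1* with 17.6, *Obsl1* with 16.7, *Paqr5* with 15.9 and *Rbm11* with 8.29 CPM per kilobase. Neighbours in this order overlapped over the WT libraries except *Tinagl1* against *Hid1* and *Paqr5* against *Rbm11*. On this scale *Npdc1* lay at the 71.0th and *Rbm11* at the 35.7th percentile of all tested genes, so the 7 genes were expressed at middle levels. In KO HSCs *Tmem191c* was highest with 14.8 and *Rbm11* lowest with 2.78 CPM per kilobase, and every pair of neighbours in the order overlapped. *Rbm11* and *Npdc1*, the lowest and the highest gene of WT HSCs by level per length, had log2FC values of -1.58 and -1.39.

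The library labelled KO3 kept *Cited2* at 73.6% of the WT mean. The 7 genes had between 29.6% (*Rbm11*) and 55.3% (*Obsl1*) of their WT mean in KO3, with a median of 50.1%. In the libraries KO1, KO2, KO4 and KO5, where *Cited2* was at most 5.08% of the WT mean, the medians over the 7 genes were 49.9%, 32.8%, 44.8% and 47.9%. Without KO3, the log2FC was -1.37 (*Npdc1*), -1.13 (*Tinagl1*), -1.69 (*Paqr5*), -1.09 (*Tmem191c*), -0.83 (*Obsl1*), -0.96 (*Hid1*) and -1.54 (*Rbm11*). KO3 was neither the highest nor the lowest KO library for any of the 7 genes. Since KO3 was among the libraries that chose the genes, this is a description, and why *Cited2* was counted in that library was not tested.

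**Figure D2:**
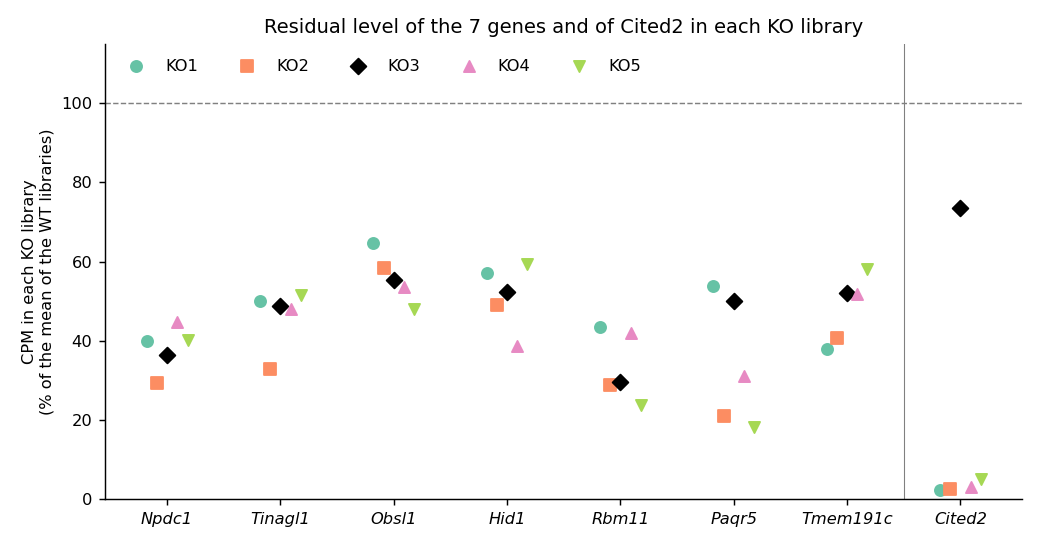
CPM of each gene in each KO library as a percentage of the mean of the 5 WT libraries (y axis), for the 7 genes and, right of the line, *Cited2*. In KO3 (black diamonds) the 7 genes lie between 29.6% and 55.3% while *Cited2* lies at 73.6%, and in the other 4 KO libraries *Cited2* lies at or below 5.08%.

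The mean of each genotype was then taken away, so that only the spread between libraries remained. Over the 21 pairs of genes, Pearson's r of log2 CPM across the 10 libraries ranged from -0.35 to 0.62 with a median of 0.11, and 12 pairs were above 0. The highest r, 0.62, was that of *Rbm11* and *Paqr5*. KO2 lay lowest on average over the 7 genes, with a mean deviation of -0.25 on the log2 scale from the mean of the KO libraries, and was the lowest KO library for *Npdc1* and *Tinagl1*. KO5 was the lowest KO library for *Obsl1*, *Rbm11* and *Paqr5* and the highest for *Tinagl1*, *Hid1* and *Tmem191c*. Within genotypes, among 11242 genes whose log2 CPM averaged 3 or more, the patterns most like that of *Npdc1* were those of *Snx3*, a sorting nexin gene (r = 0.96), and *Ccnh* (r = 0.89). Those most like *Tmem191c* were the noncoding transcript *4833418N02Rik* (r = 0.99) and *Rab3d*, which encodes a secretory vesicle GTPase (r = 0.95). For *Obsl1* they were *Pkhd1* (r = 0.95) and *Mttp* (r = 0.93), for *Hid1* *Stard8* (r = 0.94) and *Pgpep1* (r = 0.93), and for *Rbm11* *Trpc4ap* (r = 0.93) and *Caml* (r = 0.91). For *Paqr5* they were *Ddx27* and *Tspyl4* (both r = 0.93), and for *Tinagl1* *Plbd2* (r = 0.92) and *Use1* (r = 0.91). These r rest on 10 libraries whose depth and normalization are shared by all genes, and they were picked as the highest among 11242 genes. With Spearman's rho, 5 of these 14 genes were again among the top pair.

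Sex is not given in the labels, and *Xist*, the X-inactivation transcript of female cells, had at least 5128 counts in WT2, WT4, KO2 and KO3 and at most 83 in the other 6 libraries. Among the 4 libraries with *Xist*, the KO mean of the 7 genes was between 26.1% and 59.7% of the WT mean. Among the other 6 it was between 35.8% and 53.7%. The direction in each set is fixed by the choice of the genes, so these values show only sizes.

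The longest transcripts of most of the 7 genes are rich in G and C. The choice of genes did not use this directly, but choosing genes with lower counts favours it here, by the values over all tested genes given below. The median GC content was 56.4% over the 15 genes called lower and 43.1% over the 17 called higher. The 15 include the 7 genes themselves, so nothing is read from that median. The longest transcripts of *Obsl1*, *Tmem191c*, *Tinagl1*, *Hid1* and *Npdc1* had 62.5%, 61.0%, 59.4%, 57.7% and 56.6% GC, all in the highest of 4 equal classes of tested genes by GC (53.7% to 71.3%). *Paqr5* with 48.7% lay in the second and *Rbm11* with 42.3% in the lowest class. Over all tested genes, GC content moved with the genotype. In the highest class 78.7% of genes had a log2FC below 0 with a median of -0.17, and in the lowest class 24.9% did, with a median of 0.12. With a correction per library for GC and length, the log2FC values were -0.57 (*Obsl1*), -0.80 (*Tmem191c*), -0.86 (*Tinagl1*), -0.73 (*Hid1*) and -1.21 (*Npdc1*), each closer to 0 than without it. For *Paqr5* and *Rbm11* they were -1.56 and -1.71, farther from 0 than without it. All 7 stayed below 0, and 3 (*Npdc1*, *Tinagl1* and *Rbm11*) were still called among 3 lower calls in all. The correction can also remove a genotype effect that follows GC, and the part of GC content in the lower counts was not tested further.

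**Figure D3:**
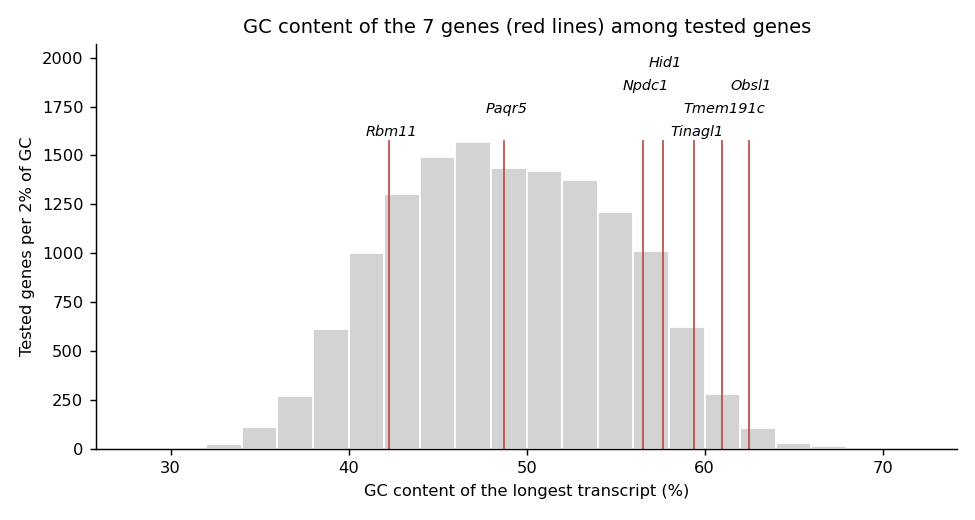
Number of tested genes per 2% of GC content of the longest transcript (grey bars, x axis in percent), with the GC content of each of the 7 genes as a red line. Obsl1, Tmem191c, Tinagl1, Hid1 and Npdc1 lie at 56.6% or above, while Paqr5 lies at 48.7% and Rbm11 at 42.3%.

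**Figure D4:**
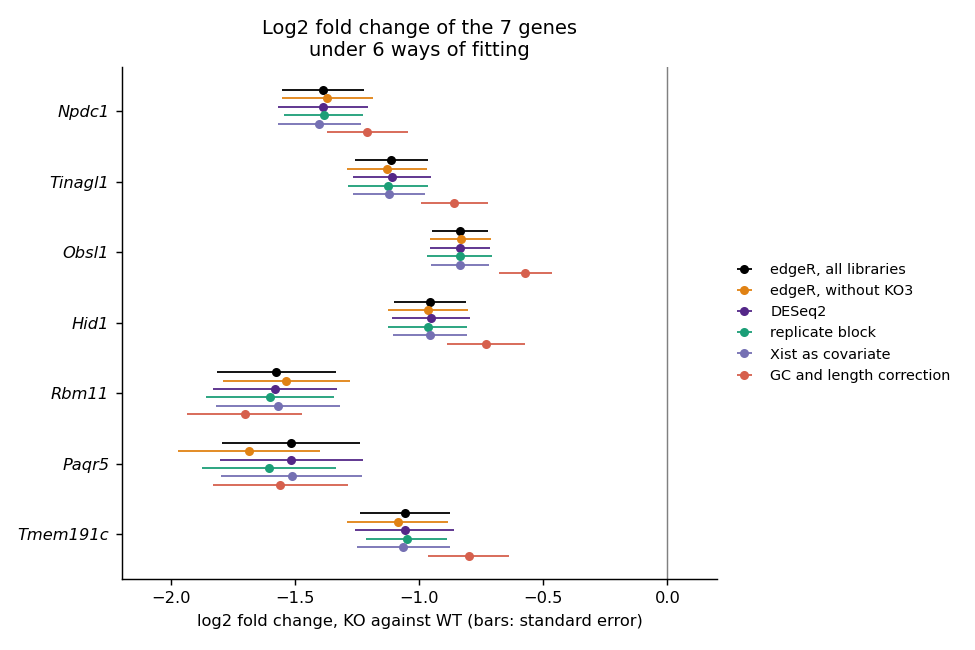
Log2 fold change of the 7 genes in KO against WT HSCs with its standard error (x axis) under 6 ways of fitting (colours: edgeR on all libraries, without KO3, with the replicate block, with *Xist* or with the correction for GC and length, and DESeq2). All estimates lie below 0, and the correction for GC and length moves *Obsl1* from -0.84 to -0.57 and *Rbm11* from -1.58 to -1.71.

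Paralogs and known partners of the 7 genes were listed for what is known of them, and were tested in the same fit. Of 41 such genes, written down from general knowledge for 6 of the 7 genes, 36 passed the filter on low counts. The list was written with earlier results of these data known, so its counts are not those of an independent sample. In KO HSCs 1 of the 36 was called higher (against 0.12% of all tested genes) and 0 were called lower (edgeR's quasi-likelihood test, adjusted over all tested genes). At an unadjusted p under 0.05, 7 were lower and 2 higher, against 7.08% and 5.8% of all tested genes. DESeq2's Wald test called 3 lower and 1 higher, against 1.44% and 1.11% of the 13371 genes it gave an adjusted p. The median log2FC of the 36 genes was -0.086.

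The complex of *Obsl1* held the uncalled gene nearest to the threshold. *Cul7*, the scaffold of its ubiquitin ligase, had 75.4 ± 6.997 CPM in WT and 47.4 ± 8.49 CPM in KO HSCs (SD, n = 5 each), log2FC = -0.67 ± 0.14 (SE, edgeR adjusted p = 0.0700). Every KO library was below every WT library for 3 of the 36 related genes, *Cul7*, *Vps51* and *Paqr7* (1.98% of all tested genes). For *Ccnd1* every KO library was above every WT library. KO3 was the lowest library for *Cul7*, at 34.3 CPM. *Cul9*, a relative of *Cul7*, had log2FC = -0.56 ± 0.17 (SE, edgeR adjusted p = 0.188). *Fbxw8*, *Speg* and *Ccdc8* had log2FC values of -0.46, -0.27 and -0.25, so these 5 genes were all below 0 with none called. DESeq2's Wald test called *Cul7* (adjusted p = 0.00184). With the correction for GC and length the log2FC of *Cul7* was -0.45 (adjusted p = 0.525, edgeR).

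Around *Npdc1*, *Ccnd1*, which encodes cyclin D1, rose from 69.5 ± 9.47 to 112 ± 18.7 CPM (SD, n = 5 each), with 104 CPM in KO3. The lowest KO library (94.8 CPM) lay above the highest WT library (80.9 CPM), and log2FC = 0.69 ± 0.13 (SE, edgeR adjusted p = 0.0456). The call was lost when any 1 of the 10 libraries was left out, with log2FC values from 0.59 to 0.75 and adjusted p-values from 0.0521 to 0.143. Other genes of this and the following lists are named to complete them and were chosen with their values in view. *E2f1*, the reported partner of NPDC1, had log2FC = -0.39 (edgeR adjusted p = 0.365), *Ccnd3* -0.20 (adjusted p = 0.340, edgeR), and *Ccnd2* and *Cdk2* -0.01 and 0.01.

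For *Hid1*, *Vps51*, a subunit shared by vesicle tethering complexes, had 77.1 ± 3.00 CPM in WT and 56.4 ± 6.59 CPM in KO HSCs (SD, n = 5 each), log2FC = -0.45 ± 0.11 (SE, edgeR adjusted p = 0.0948). It was called by DESeq2's Wald test (adjusted p = 0.00865), and with the correction its log2FC was -0.18. *Vps53*, another subunit, had log2FC = -0.24 (edgeR adjusted p = 0.432), and -0.15 without KO3. The other genes of the list, among them *Ccdc186*, which acts with HID1 at the Golgi, lay between -0.27 and 0.07. *Rbm7*, the closest paralog of *Rbm11*, had 185 ± 14.2 CPM in WT and 187 ± 16.04 CPM in KO HSCs (SD, n = 5 each), and *Mtrex* and *Zcchc8*, which bind RBM7 in a nuclear RNA decay complex, had log2FC values of 0.22 and -0.15 (adjusted p = 0.266 and 0.646, edgeR).

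The other membrane progesterone receptors did not pass the test. *Paqr7*, which encodes receptor alpha, had 83.8 ± 8.39 CPM in WT and 65.5 ± 8.11 CPM in KO HSCs (SD, n = 5 each), log2FC = -0.35 ± 0.11 (SE, edgeR adjusted p = 0.221). *Paqr8*, which encodes receptor beta, had log2FC = -0.35 ± 0.21 (SE, edgeR adjusted p = 0.520), and -0.22 without KO4. *Paqr6*, *Paqr9* and *Mmd2* of the same family did not pass the filter on low counts, and the adiponectin receptor genes *Adipor1* and *Adipor2* had log2FC values of -0.12 and 0.25. *Tinag*, the paralog of *Tinagl1*, did not pass the filter either, with at most 2.60 CPM in any library, and neither did *Egfr*. The tested genes around *Tinagl1* were *Ctsb*, *Itga5*, *Itgb1* and *Fn1*, with log2FC values of -0.12, -0.05, 0.11 and 0.64, none called (adjusted p from 0.447 to 0.916, edgeR).

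**Figure D5:**
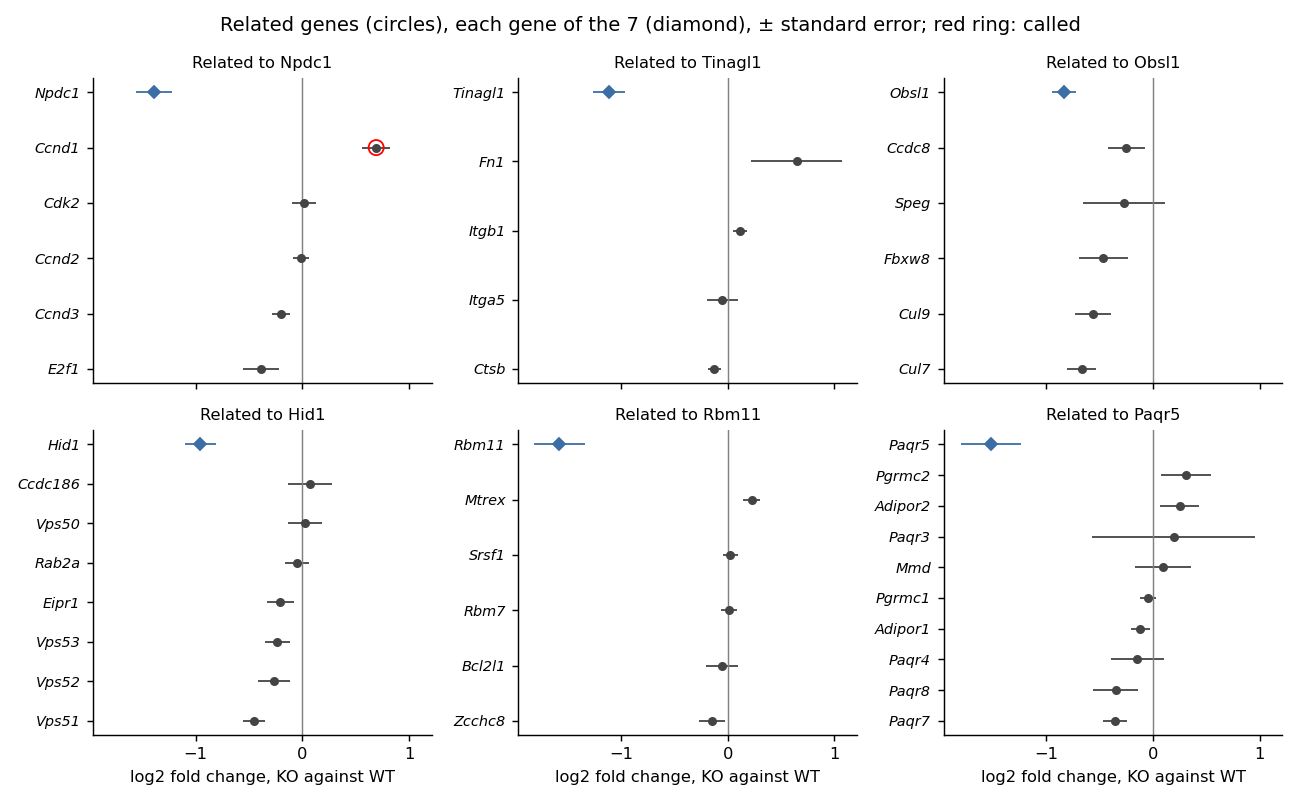
Log2 fold change in KO against WT HSCs with its standard error (x axis) for the tested paralogs and partners (circles) of 6 genes, each shown with the gene itself (blue diamond). The 5 genes shown around *Obsl1* all lie below 0 without a call, and *Ccnd1*, ringed in red at 0.69, is the 1 called gene.

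The genes next to the 7 on the chromosome were taken by position alone, the nearest tested gene on each side by the lower coordinate of each gene. Of these 14 neighbours none was called in either direction, 1 was lower and 1 higher at an unadjusted p under 0.05 (7.08% and 5.8% of all tested genes), and their median log2FC was -0.21 (adjusted p from edgeR over all tested genes, and DESeq2 also called none). *Chpf*, which encodes a chondroitin polymerizing factor and starts 3 bases past the end of *Obsl1*, had the lowest value, -0.77 ± 0.45 (SE, adjusted p = 0.507), on 9.20 ± 2.98 and 5.34 ± 3.04 CPM (SD, n = 5 each). *Inha*, an inhibin subunit gene on the other side of *Obsl1*, had -0.43, and the pair around *Hid1*, *Fdxr* and *Cdr2l*, -0.40 and -0.45. *Hic2* and *Pi4ka* beside *Tmem191c* had -0.44 and -0.19, and *Entpd2* and *Fut7* beside *Npdc1* -0.39 and 0.03. *Pef1* and *Zcchc17* beside *Tinagl1* had -0.23 and 0.19 (adjusted p = 0.321 and 0.380, edgeR). *Lipi* and *Hspa13* beside *Rbm11* had 0.25 and 0.16, and *Kif23* and *Glce* beside *Paqr5* -0.04 and 0.20. Several of these values moved by over 1.5 times without 1 library, *Inha* for example to -0.21 without KO4 and to -0.71 without KO5, and *Hic2* to -0.67 without WT1.

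Markers of other cells were measured beside these values. Of 39 marker genes of erythroid, megakaryocytic, myeloid, B, T and NK, and endothelial and stromal cells in the table, 25 passed the filter on low counts, and none was called by edgeR's quasi-likelihood test or by DESeq2's Wald test. At an unadjusted p under 0.05 (edgeR), 1 of them (*Prtn3*) was lower and 2 (*Nkg7* and *Kdr*) were higher in KO HSCs, against 7.08% and 5.8% of all tested genes. *Kdr*, an endothelial marker, had 8.47 ± 5.87 CPM in WT and 18.4 ± 6.01 CPM in KO HSCs (SD, n = 5 each), log2FC = 1.12 ± 0.46 (SE, edgeR adjusted p = 0.330). *Prtn3*, a myeloid marker, had log2FC = -0.25 (edgeR adjusted p = 0.361). The summed level of each list overlapped between the genotypes, for example 529 to 647 CPM in WT and 522 to 659 CPM in KO libraries for 6 megakaryocyte markers. Myeloid markers summed to between 396 and 765 CPM in WT and between 374 and 600 CPM in KO libraries, and endothelial and stromal markers to between 111 and 132 CPM in WT and between 125 and 159 CPM in KO libraries. A sum weighs its highest genes most, such as *Itga2b* (235 CPM in WT) among megakaryocyte and *Pecam1* (94.0 CPM in WT) among endothelial and stromal markers. A change in a lower gene such as *Kdr* can be hidden in it. Of 6 B cell markers only *Cd79b* passed the filter on low counts, with 41.2 to 70.5 CPM over the 10 libraries, and of 5 T and NK cell markers *Nkg7* (47.8 to 124 CPM, log2FC 0.47, edgeR adjusted p = 0.287) and *Klrb1c* (at most 24.4 CPM) did. The part of other cells in the level of the 7 genes was not tested.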

How the data were processed

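RNA of sorted HSCs from 5 WT and 5 KO mice was analysed from the deposited read counts per gene symbol. According to the submitters' processing notes and the study's methods, the authors aligned reads with HISAT2 to the mouse genome GRCm38 and counted them with Rsubread. The annotation, the use of strand and the removal of duplicate reads are not given in the sources used here. Gene lengths in bases, as deposited, were used to compare levels between genes, for counts per base and in the correction for GC and length. Highest counts per base (genes over 500 bases) were between 1.45 and 1.72 in each library, and those of the 7 genes reached at most 0.175.

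Counts were tested with edgeR 4.0.16 in R 4.3.3 (filterByExpr, TMM normalization, quasi-likelihood F test, genotype as the only term, Benjamini-Hochberg adjustment over 14165 genes). A gene was called at an adjusted p under 0.05 and a fold change above 1.2. Alternatives used DESeq2 1.42.0 (the study's own tool), limma-voom (limma 3.58.1), other filters and size factors, *Xist* as a covariate, a correction for GC and length (a loess offset per library), the replicate number as a block, and each library left out. The fit was tested on simulated data. CPM divide counts by the TMM-normalized total. Likeness was computed on log2 CPM (prior count 2).

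The 7 genes and the lists of related genes, markers and motifs were chosen with earlier results of these data known. Named beside the 7 genes are *Cited2*, called related or neighbouring genes, the pair of smallest p-values in each related list, the neighbours, and the pair of genes most like each of the 7. Positions and GC content come from GENCODE M21 and promoters from RefSeq (GRCm38.p6). No libraries agreed within sampling noise (chi-square per gene of at least 4.74 for every pair within a genotype). At depths of 3058690 to 4548795 counts, a gene such as *Rbm11* rests on 23 to 105 counts per library. Some genes of the related and marker lists enter the counts of those lists and are not reported here by name.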

Additional observations from a re-analysis of the deposited data

Results flagged for a closer look

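Each genotype holds 5 libraries, and the gap of the highest or lowest library to its nearest neighbour was divided by the range of the genotype, for the 7 genes and *Cited2* in both genotypes. *Tinagl1* in KO2 had 16.1 CPM, and its gap was 0.80 of the range of the KO libraries, above Dixon's critical value of 0.71. The other KO libraries had 23.5 to 25.3 CPM of *Tinagl1*. *Cited2* in the library labelled KO3 had 120.1 CPM, and its gap was 0.96 of the range, while the other KO libraries had 3.80 to 8.30 CPM. Chance alone passes this value in a small share of groups, and 16 groups were looked at.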

How the results depend on the processing

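The log2 fold changes of the 7 genes were below 0 in all 133 combinations of gene and alternative, a sign that the choice of the genes fixes where libraries are left out, and 127 of them moved by less than the spread between libraries. Those that moved more were -0.86 (*Tinagl1*), -0.57 (*Obsl1*) and -0.73 (*Hid1*) with the correction for GC and length, and -0.87, -0.58 and -0.74 with the correction and the replicate block. *Paqr5* lay farther from 0 than *Rbm11* with limma-voom, the replicate block and without WT3, KO1 or KO3. Of the 7 genes, 3 were called with the correction and 2 with the correction and the block. Leaving out 1 library left 3 to 7 of them called, with 3 without WT2, WT4 or KO2 and 7 without KO3. Over all genes, DESeq2 called 193 lower and 148 higher, the correction 3 and 5, and the correction with the block 3 and 8. Leaving out 1 library gave 3 to 18 lower and 5 to 27 higher calls, 27 without KO3. With the replicate block, 9 genes were called lower, 5 of the 7 among them. Replicate numbers are shared by the genotypes, but same-numbered libraries did not deviate together (correlations from -0.09 to 0.21, with 2 of 5 over 0.1 and 1 library closest to its own number), so they were not treated as pairs. Among related genes DESeq2 called 3 lower, and *Ccnd1* was not called with limma-voom (adjusted p = 0.0583), the replicate block (0.0668), *Xist* (0.0708), the correction (0.169) or the correction with the block (0.185), nor without any 1 library, so that 0 related genes were then called higher. The signs that turned were those of uncalled genes, *Fut7* with limma-voom (-0.014), *Ccnd3* (0.0097) and *Itgb1* (-0.00046) with the correction, and *Ccnd3* (0.012), *Itgb1* (-0.0019), *Entpd2* (0.037) and *Lipi* (-0.15) with the correction and the block. With 1 library left out the values ranged from -0.093 to 0.15 (*Fut7*), -0.11 to 0.051 (*Kif23*), -0.73 to 0.053 (*Cdr2l*) and -0.15 to 0.68 (*Lipi*). On the given strand only, 0 genes had CCAAT and 0 had ACGTG. By Spearman's rho 5 of 14 most alike genes were kept. The causes were not tested, save that the correction takes out what follows GC content or length by its construction. Counts per gene were low for *Rbm11*, and 5 mice per genotype limit the precision.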
